A study of Mus musculus with 2 samples.

Results

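The genes described here are 42 muscle contractile genes, chosen by name as myogenic factors, sarcomere genes and smooth muscle genes, out of 21607 genes in an RNAseq table of the newborn mouse tongue epithelium. Of the 42, 33 belong to striated muscle, 6 to smooth muscle, and 3 (*Des*, *Tpm1* and *Tpm2*) are used by both. The lingual epithelium of pooled pups of genotype Sox2GFP, whose cells carry GFP as a reporter of *Sox2*, was separated enzymatically at postnatal day 0 (P0). Cells were sorted by fluorescence into a bright population (GFP_High) and a dim population (GFP_Low), with about 100000 cells in each and no treatment. RNA from each population gave 1 library, read in 50 nt single reads to a stated depth of about 75M reads. Values are FPKM, a fragment count divided by transcript length in kilobases and by the size of the library. With 1 library per population there is no spread between replicates to set a difference against, and no p-value is given.

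Muscle contracts when myosin thick filaments pull on actin thin filaments. In striated muscle, calcium released from the sarcoplasmic reticulum binds troponin and moves tropomyosin off the sites where myosin attaches. In smooth muscle, calcium acts through phosphorylation of the regulatory myosin light chain, and non-muscle cells use related actins, myosins and tropomyosins for adhesion and shape. The tongue is mostly skeletal muscle, which lies under the epithelium and forms with the help of the myogenic factors, and smooth muscle surrounds its blood vessels.

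The sort itself was visible in the libraries. *Sox2* had 112 FPKM in GFP_High and 59.0 FPKM in GFP_Low, a ratio of 1.9. Basal keratins marked both libraries as epithelial, and *Krt5* alone reached 9667 FPKM in GFP_High and 10422 FPKM in GFP_Low.

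Smooth muscle genes were higher in GFP_Low, whereas striated muscle genes had similar sums in both libraries. A gene was called higher in a population when it had at least 5 FPKM there and at least 1.5 times the FPKM of the other population. By this rule 6 of the 42 genes (14.3%) were higher in GFP_Low, namely *Acta2*, *Actg2*, *Myh11*, *Myl9*, *Tagln* and *Mylpf*, against 4.44% of all genes. Only *Tnnt3* (2.38% of the 42) was higher in GFP_High, against 4.72% of all genes. The 6 smooth muscle genes summed to 57.3 FPKM in GFP_High and 227 FPKM in GFP_Low, 3.96 times as much. The 33 striated genes summed to 197 FPKM in GFP_High and 208 FPKM in GFP_Low, a ratio of 1.06. The sorted populations are mixtures, so fewer cells of a type and less RNA per cell cannot be told apart.

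Most of the 42 genes were low. In GFP_High 11 of them reached 5 FPKM, and in GFP_Low 14 did. Under 1 FPKM in both libraries were 14 genes, among them *Myh2* and *Myl2*, which were listed at 0 in both. Of the 21590 genes of the table with both values, 10343 reached 5 FPKM in GFP_High and 10433 in GFP_Low. Among the same 21590 genes, 8655 were under 1 FPKM in both libraries and 4307 were listed at 0 in both. Together the 42 genes held 0.0892% of the summed FPKM of GFP_High and 0.114% of that of GFP_Low. The gene-by-gene difference was computed as log2(GFP_Low + 0.1) minus log2(GFP_High + 0.1), where 0.1 FPKM is added to damp ratios of very low values. Its median was 0.13 over the 38 genes above 0 in both libraries and 0.03 over all 15928 such genes of the table. Within the 42 genes it separated by muscle type, at 2.02 for the 6 smooth genes and 0.03 for the 29 striated genes above 0 in both. The striated median was -0.01 when GFP_Low was rescaled by the median ratio of genes with at least 5 FPKM in both libraries, and 0.12 when each library was divided by its FPKM sum. The striated sum had a log2 difference of 0.08, which was 0.04 and 0.18 under these scalings and -0.14 without *Mylpf*, the striated gene with the highest FPKM summed over both libraries (within GFP_High, *Tnni2* had more FPKM than *Mylpf*).

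**Figure D1:**
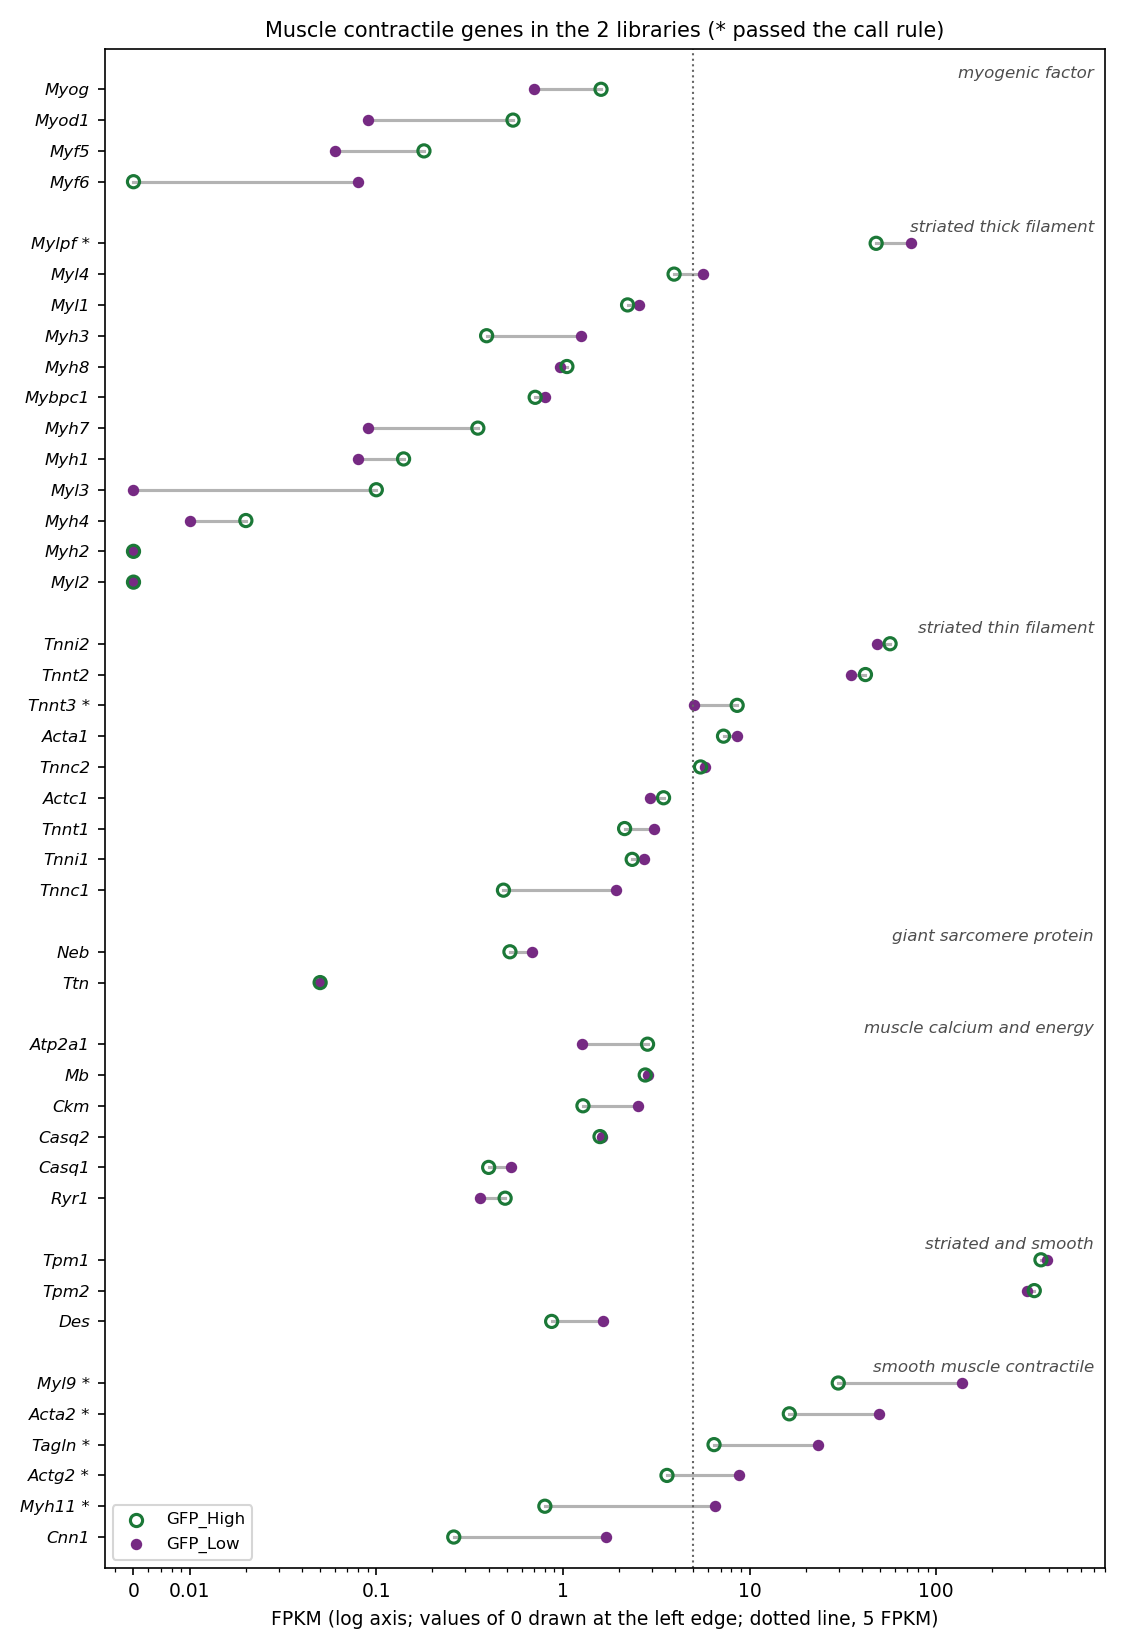
FPKM of each of the 42 muscle contractile genes in GFP_High (open circles) and GFP_Low (filled circles), by role, on a log axis with values of 0 drawn at the left edge; a star marks a gene that passed the call rule, and the dotted line is at 5 FPKM. In all 6 smooth muscle genes the filled circle lies to the right, with *Myl9* moving from 29.9 to 137 FPKM, while *Tpm1* (364 and 393 FPKM) and *Tpm2* (335 and 307 FPKM) lie far to the right of the other genes.

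*Myl9*, the regulatory light chain of smooth muscle myosin, was the most abundant of the smooth muscle genes. It had 29.9 FPKM in GFP_High and 137 FPKM in GFP_Low, a 4.58-fold difference that moved it from rank 5604 to rank 1273 among all genes of its library. Without *Myl9* the log2 difference of the smooth muscle sum was 1.71, compared with 1.98 with it. Among the 3 smooth muscle genes with a promoter entry, only *Myl9* had a CArG box, the motif bound by serum response factor, in the searched bases. For *Acta2* these bases reached only 33 bases upstream of the annotated gene, so a box further upstream was not looked for. The stretch before the *Myl9* start is shown for its box and because *Myl9* carries the largest share of the smooth muscle sum. The stretch lies on the plus strand at chr2:156775214-156775419 (GRCm38.p6, RefSeq promoter table), stops where the annotated exon begins, and has the CArG box, 161 bases before the RefSeq start, in capitals.
Myl9: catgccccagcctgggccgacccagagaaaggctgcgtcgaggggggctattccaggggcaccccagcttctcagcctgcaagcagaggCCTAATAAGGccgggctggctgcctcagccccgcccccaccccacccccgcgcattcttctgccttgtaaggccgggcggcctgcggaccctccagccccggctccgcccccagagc

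*Acta2* encodes the actin of vascular smooth muscle. It had 16.3 FPKM in GFP_High and 49.5 FPKM in GFP_Low (3.03-fold). *Actg2*, the actin of visceral smooth muscle, was lower at 3.61 FPKM in GFP_High and 8.75 FPKM in GFP_Low (2.42-fold). Both actins were thus higher in GFP_Low, and the vascular one was the more abundant in each library.

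*Myh11*, the smooth muscle myosin heavy chain, had the largest fold of the called genes. It had 0.80 FPKM in GFP_High and 6.56 FPKM in GFP_Low (8.2-fold). Its level in GFP_Low was far below that of its light chain *Myl9*, which is also used by non-muscle myosin. A threshold of 5 FPKM in each population, in place of the higher one only, ended the calls of *Myh11* and *Actg2*, as did a threshold of 10 FPKM.

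*Tagln* encodes transgelin, an actin-binding protein of smooth muscle. It had 6.45 FPKM in GFP_High and 23.4 FPKM in GFP_Low (3.62-fold). Part of this value is uncertain, because 62.4% of its exon bases overlap *Gm48529*, an antisense gene on the opposite strand. The libraries were stranded, but whether strand was used in the quantification is not given in the sources used here. *Cnn1*, which encodes calponin, an inhibitor of the myosin ATPase in smooth muscle, had 0.26 FPKM in GFP_High and 1.7 FPKM in GFP_Low. Its ratio was 6.54, and it was not called because it stayed under 5 FPKM. Every one of the 6 smooth muscle genes was therefore higher in GFP_Low in these libraries, 5 of them by the call rule.

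Among 20 other smooth muscle genes, 5 were higher in GFP_Low and 0 in GFP_High. Among these were *Mcam* (51.9 FPKM in GFP_High, 96.6 in GFP_Low), *Cald1* (164 and 285), *Smtn* (66.4 and 106) and *Actg2*, which is shared with the 42 genes, as are *Des* and *Casq2*. The 20 genes summed to 528 FPKM in GFP_High and 727 FPKM in GFP_Low, led by *Cnn2* and *Cald1* respectively, and their median log2 difference was 0.80. Both leading genes are also made by non-muscle cells and stand in the list of non-muscle actomyosin genes as well, so the sum is not specific to smooth muscle. None was listed at 0 in both libraries, and *Myocd*, a coactivator of smooth muscle genes, had 0.06 FPKM in GFP_High and 0.18 FPKM in GFP_Low.

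Markers of other cell types also differed between the libraries, and their part in the smooth muscle result was not tested. Of 11 fibroblast genes, 6 were higher in GFP_Low and 0 in GFP_High, led by *Col3a1* (193 FPKM in GFP_High, 966 in GFP_Low), and the list summed to 527 FPKM in GFP_High and 2312 FPKM in GFP_Low. *Postn* had 41.6 FPKM in GFP_High and 436 FPKM in GFP_Low, and no fibroblast gene was listed at 0 in both. Of 8 Schwann lineage genes, 6 were higher in GFP_Low, with sums of 90.4 FPKM in GFP_High and 331 FPKM in GFP_Low, and *Erbb3* was the most abundant in GFP_High (60.3 FPKM in GFP_High, 66.9 in GFP_Low). Of 10 pericyte genes, 0 were higher in GFP_Low and 2 in GFP_High, *Ndufa4l2* (436 and 159 FPKM) and *Anpep* (58.2 and 28.8 FPKM), with sums of 587 FPKM in GFP_High and 274 FPKM in GFP_Low that *Ndufa4l2* led in both. By count, 6 of the 10 pericyte genes had the larger value in GFP_Low and the median log2 difference was 0.20. Among these 6 were *Pdgfrb* (1.36 FPKM in GFP_High, 2.96 in GFP_Low) and *Rgs5* (1.8 and 3.98). Of 9 endothelial genes, *Pecam1* (5.31 and 2.38 FPKM) was higher in GFP_High and 0 were higher in GFP_Low, and the list summed to 38.6 and 27.2 FPKM, led by *Egfl7*. Without the call rule, 8 of the 9 endothelial genes had the larger value in GFP_High, and their median log2 difference was -0.75. The 6 leukocyte genes in the table summed to 18 FPKM in GFP_High and 18.7 FPKM in GFP_Low, led by *Cd68*, with no call. Of 7 basal keratinocyte genes, *Itgb4* was higher in GFP_Low (424 and 664 FPKM), and the list summed to 25796 FPKM in GFP_High and 32952 FPKM in GFP_Low. Of 8 suprabasal keratinocyte genes, 5 were higher in GFP_High, with sums of 46654 and 12848 FPKM led by *Krt13*. Of 9 taste cell genes, 8 were higher in GFP_High, with sums of 776 and 265 FPKM, led by *Lrmp* in GFP_High and *Krt7* in GFP_Low. No gene of these lists was listed at 0 in both libraries.

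**Figure D2:**
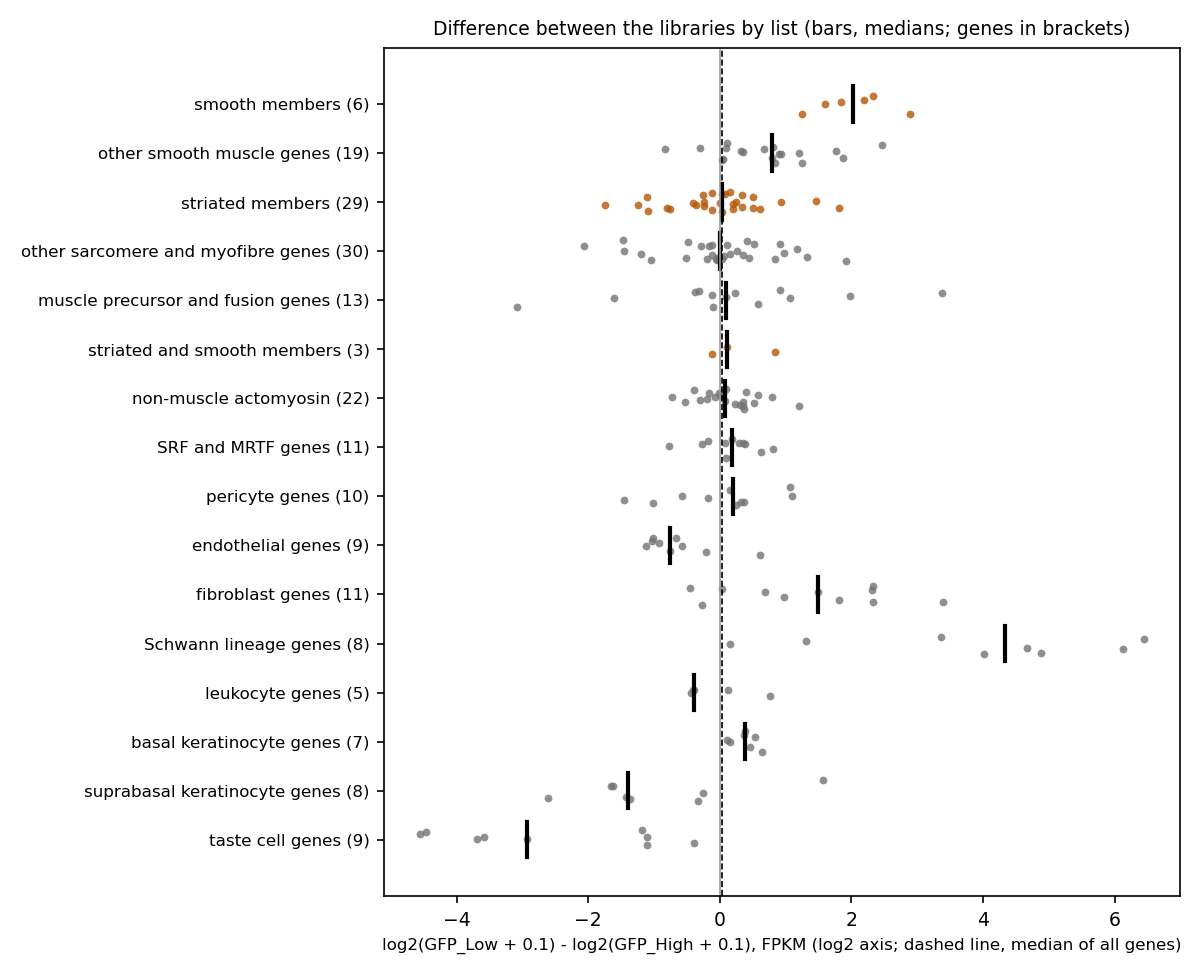
Difference between libraries, log2(GFP_Low + 0.1) minus log2(GFP_High + 0.1) of FPKM on a log2 axis, for every gene above 0 in both libraries, by list; orange points are the 42 muscle genes, bars are medians, and the dashed line is the median of all genes (0.03). The smooth muscle genes have a median of 2.02 and lie between the fibroblast genes (1.48) and the Schwann lineage genes (4.33), and the striated genes have a median of 0.03.

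The 3 genes used by both muscle types did not pass the rule in either direction. *Tpm1*, a tropomyosin that lies along the thin filament and is also made by epithelial cells, had 364 FPKM in GFP_High and 393 FPKM in GFP_Low. *Tpm2*, its relative, had 335 FPKM in GFP_High and 307 FPKM in GFP_Low. Both ranked among the 421 most abundant genes of each library, far above every other gene of the 42. *Des*, the intermediate filament of muscle, was rare by comparison, with 0.87 FPKM in GFP_High and 1.64 FPKM in GFP_Low. Its ratio of 1.89 exceeded the fold threshold, but its level did not reach 5 FPKM.

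The myogenic factors, which commit cells to skeletal muscle and drive their differentiation, were rare in both libraries. *Myog*, which acts in differentiating myoblasts, had 1.6 FPKM in GFP_High and 0.70 FPKM in GFP_Low, or about 57 and 32 reads at the depths estimated from the low FPKM values (27.6M reads for GFP_High and 35.2M for GFP_Low, or 31.9M under other limits on the values used). Both estimates are well below the stated 75M reads, the reason for the gap was not tested, and more reads behind the same FPKM would narrow the intervals given here. Dividing these whole read numbers by the estimated depths gave a ratio of GFP_High to GFP_Low of 2.27, beside an FPKM ratio of 2.29, with a 95% interval from counting error alone of 1.45 to 3.62 (exact binomial). *Myod1*, which commits cells to the muscle lineage, had 0.54 FPKM in GFP_High and 0.09 FPKM in GFP_Low, about 25 and 5 reads. Its FPKM ratio was 6, and its depth-scaled ratio of whole reads was 6.38, with an interval of 2.4 to 21.3. For *Myog* and *Myod1* the interval lay above 1 at the estimated depths, a comparison of these libraries and not of the populations.

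*Myf5*, an early determination factor, had 0.18 FPKM in GFP_High and 0.06 FPKM in GFP_Low, about 9 and 4 reads. Its FPKM ratio was 3, and its depth-scaled ratio of whole reads was 2.87, with an interval of 0.801 to 12.8, which included 1 at the estimated depths. *Myf6*, which is expressed in maturing fibres, was listed at 0 in GFP_High, where 3 reads would give 0.102 FPKM, and at 0.08 FPKM in GFP_Low. None of the 4 factors reached 5 FPKM, and *Myog*, *Myod1* and *Myf5* had their higher value in GFP_High, unlike the smooth muscle genes.

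Of the 12 thick filament genes, 1 was higher in GFP_Low and 0 in GFP_High. This gene was *Mylpf*, the regulatory light chain of fast skeletal fibres, with 47.7 FPKM in GFP_High and 73.1 FPKM in GFP_Low. Its ratio of 1.53 was close to the threshold, and the call was lost when GFP_Low was rescaled by the median ratio and when the fold threshold was raised to 2. *Mylpf* held most of the thick filament sum, which was 56.6 FPKM in GFP_High and 84.5 FPKM in GFP_Low. Its upstream stretch is shown as the most abundant striated gene with a call. It lies on the plus strand at chr7:127211358-127211607 (GRCm38.p6, RefSeq), and the capitals mark CAGCTG, an E-box of the kind bound by myogenic factors, 51 bases before the start.
Mylpf: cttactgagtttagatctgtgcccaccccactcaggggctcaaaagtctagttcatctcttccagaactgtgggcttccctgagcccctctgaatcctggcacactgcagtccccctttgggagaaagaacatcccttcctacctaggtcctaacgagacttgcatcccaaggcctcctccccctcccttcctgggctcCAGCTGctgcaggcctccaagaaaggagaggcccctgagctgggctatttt

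The other light chains were lower by an order of magnitude. *Myl4*, the embryonic and atrial essential light chain, had 3.94 FPKM in GFP_High and 5.64 FPKM in GFP_Low. Its ratio of 1.43 passed the threshold when each library was divided by its FPKM sum. *Myl1*, the fast essential light chain that pairs with the *Mylpf* product, had 2.22 FPKM in GFP_High and 2.57 FPKM in GFP_Low. The slow and ventricular light chains were nearly undetected, with *Myl3* at 0.10 FPKM in GFP_High and listed at 0 in GFP_Low, and *Myl2* listed at 0 in both.

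No myosin heavy chain of striated muscle reached 5 FPKM. *Myh3*, the embryonic heavy chain, had 0.39 FPKM in GFP_High and 1.25 FPKM in GFP_Low. *Myh8*, the perinatal heavy chain typical of muscle at birth, had 1.05 FPKM in GFP_High and 0.96 FPKM in GFP_Low. These developmental forms were the most abundant of the group, as against the adult ones. *Myh7*, the slow and cardiac heavy chain, had 0.35 FPKM in GFP_High and 0.09 FPKM in GFP_Low. The fast heavy chain *Myh1* had 0.14 FPKM in GFP_High and 0.08 FPKM in GFP_Low, *Myh4* had 0.02 FPKM and 0.01 FPKM, and *Myh2* was listed at 0 in both. The coding sequences of these paralogs are alike, and 30.5% of the 50 nt windows of *Myh1*, 24.6% of *Myh2* and 20% of *Myh7* occur in another gene, so their values are uncertain. *Mybpc1*, which encodes a myosin-binding protein of slow fibres, had 0.71 FPKM in GFP_High and 0.80 FPKM in GFP_Low.

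Of the 9 thin filament genes, 1 was higher in GFP_High and 0 in GFP_Low. *Tnnt3*, the fast skeletal troponin T that anchors the troponin complex to tropomyosin, had 8.58 FPKM in GFP_High and 5.05 FPKM in GFP_Low. Its ratio was 1.7, and the call was lost at a threshold of 10 FPKM or of 2-fold. *Tnni2*, the fast skeletal troponin I that holds myosin off the filament, was the most abundant of the group, with 56.6 FPKM in GFP_High and 48.1 FPKM in GFP_Low. *Tnnc2*, the fast troponin C that binds calcium, had 5.46 FPKM in GFP_High and 5.79 FPKM in GFP_Low. Its value is uncertain, since 74.0% of its exon bases overlap *Ube2c*, a cell cycle gene on the opposite strand with 208 FPKM in GFP_High and 131 FPKM in GFP_Low.

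Among the slow and cardiac troponins, *Tnnt2*, the cardiac troponin T, stood apart by its level. It had 41.8 FPKM in GFP_High and 34.9 FPKM in GFP_Low, a ratio of 1.2. The slow troponin T, *Tnnt1*, had 2.14 FPKM in GFP_High and 3.06 FPKM in GFP_Low. The slow troponin I, *Tnni1*, had 2.35 FPKM in GFP_High and 2.72 FPKM in GFP_Low. *Tnnc1*, the troponin C of slow and cardiac muscle, was far below *Tnnt2*, with 0.48 FPKM in GFP_High and 1.93 FPKM in GFP_Low. Its ratio of 4.02 was not called because neither value reached 5 FPKM.

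The striated actins differed little between the libraries. *Acta1*, the skeletal actin, had 7.25 FPKM in GFP_High and 8.57 FPKM in GFP_Low. *Actc1*, the cardiac actin, had 3.46 FPKM in GFP_High and 2.92 FPKM in GFP_Low. Both had a ratio of 1.18, in opposite directions. The stretches before *Acta1* and *Tnnt2* are shown because these genes had similar levels in both libraries and hold CAGCTG, as *Mylpf* does, and in *Acta1* also a CArG box, as *Myl9* does. That of *Acta1* lies on the minus strand at chr8:123894776-123895025, with CAGCTG 221 bases and a CArG box 73 bases before the start. That of *Tnnt2* lies on the plus strand at chr1:135836084-135836333, with CAGCTG at 223 and 157 bases. Both come from RefSeq (GRCm38.p6), with the motifs in capitals.
Acta1: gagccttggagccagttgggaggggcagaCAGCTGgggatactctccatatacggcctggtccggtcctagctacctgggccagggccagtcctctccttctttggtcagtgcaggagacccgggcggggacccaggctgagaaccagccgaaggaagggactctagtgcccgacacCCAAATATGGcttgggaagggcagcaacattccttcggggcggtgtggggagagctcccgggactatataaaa
Tnnt2: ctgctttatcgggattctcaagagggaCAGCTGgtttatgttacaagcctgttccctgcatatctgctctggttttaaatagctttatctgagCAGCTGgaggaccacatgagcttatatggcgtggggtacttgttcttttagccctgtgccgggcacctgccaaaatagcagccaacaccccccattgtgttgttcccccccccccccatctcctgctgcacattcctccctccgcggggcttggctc

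The giant proteins that set the length and elasticity of the sarcomere were under 1 FPKM in both libraries. *Neb*, which encodes the ruler of the thin filament, had 0.52 FPKM in GFP_High and 0.68 FPKM in GFP_Low. *Ttn*, which spans from Z disc to M line, had 0.05 FPKM in both.

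None of the 6 genes of calcium handling and energy supply reached 5 FPKM, and their sums were 9.35 FPKM in GFP_High and 9.14 FPKM in GFP_Low. *Atp2a1*, the calcium pump of the fast sarcoplasmic reticulum, had 2.84 FPKM in GFP_High and 1.27 FPKM in GFP_Low. Its exons overlap those of *Rabep2* on the opposite strand by 21.9%, and *Rabep2* had 54.2 FPKM in GFP_High and 53.7 FPKM in GFP_Low. *Ckm*, the muscle creatine kinase, went the other way, with 1.28 FPKM in GFP_High and 2.53 FPKM in GFP_Low. The oxygen store myoglobin, *Mb*, had 2.76 FPKM in GFP_High and 2.84 FPKM in GFP_Low, with 27.6% of its exon bases shared with the antisense gene *Gm49540*. *Casq2*, the cardiac calsequestrin that buffers calcium in the reticulum, had 1.58 FPKM in GFP_High and 1.61 FPKM in GFP_Low, and the sign of this difference turned after median ratio scaling. *Casq1*, its skeletal relative, had 0.40 FPKM in GFP_High and 0.53 FPKM in GFP_Low. *Ryr1*, the calcium release channel, had 0.49 FPKM in GFP_High and 0.36 FPKM in GFP_Low.

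The abundant striated genes were not accompanied by their usual partners at like levels. Troponin is built from equal numbers of T, I and C subunits, yet the FPKM of *Tnni2* was 6.6 times that of *Tnnt3* in GFP_High and 9.53 times in GFP_Low. Against *Tnnc2*, whose value is uncertain because of its overlap with *Ube2c*, it was 10.4 times in GFP_High and 8.31 times in GFP_Low. *Tnnt2* had 87.0 times the FPKM of *Tnnc1* in GFP_High and 18.1 times in GFP_Low. The first of these ratios rests on a low value, since *Tnnc1* had 0.48 FPKM in GFP_High. For the light chains, *Mylpf* had 21.5 times the FPKM of *Myl1* in GFP_High and 28.5 times in GFP_Low. FPKM is scaled by transcript length, so these ratios compare levels of transcripts, not of proteins, and they were formed after the values were seen.

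The related genes of non-muscle cells were far more abundant than most of the muscle forms. In the actin family, the 4 muscle actins held 1.62% of the summed FPKM in GFP_High and 5.16% in GFP_Low. The remainder came from *Actb* (1740 FPKM in GFP_High, 1208 in GFP_Low) and *Actg1* (121 and 73.2). Among class II myosin heavy chains the 7 muscle forms held 0.837% in GFP_High and 2.13% in GFP_Low, beside *Myh9* at 191 FPKM and 246 FPKM. The muscle share of the regulatory light chains, *Myl9*, *Mylpf* and *Myl2*, was larger, at 12.6% in GFP_High and 28.0% in GFP_Low. For the essential light chains, where *Myl6* dominated, it was 3.93% in GFP_High and 4.78% in GFP_Low.

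Tropomyosins were the exception. *Tpm1* and *Tpm2* held 63.6% of tropomyosin FPKM in GFP_High and 64.5% in GFP_Low, ahead of *Tpm4* (282 and 268 FPKM) and *Tpm3* (118 and 119 FPKM). At the other end, *Cnn1* held 0.0925% of calponin FPKM in GFP_High and 0.581% in GFP_Low, and *Tagln* held 0.404% and 1.89% of transgelin FPKM. In all 7 families the muscle share was higher in GFP_Low. For tropomyosin the muscle sum was nearly equal (699 FPKM in GFP_High, 701 in GFP_Low) while that of *Tpm3* and *Tpm4* was 400 and 386 FPKM. For actin the muscle sum was 30.6 FPKM in GFP_High and 69.7 in GFP_Low, while that of *Actb* and *Actg1* was 1861.3 and 1281.2 FPKM. Among the muscle actins, *Acta2* and *Actg2* differed between the libraries by the call rule while *Acta1* and *Actc1* did not. Of the non-muscle actins, *Actg1* was higher in GFP_High by the same rule and *Actb* was not called. *Myh11* was the only called heavy chain.

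**Figure D3:**
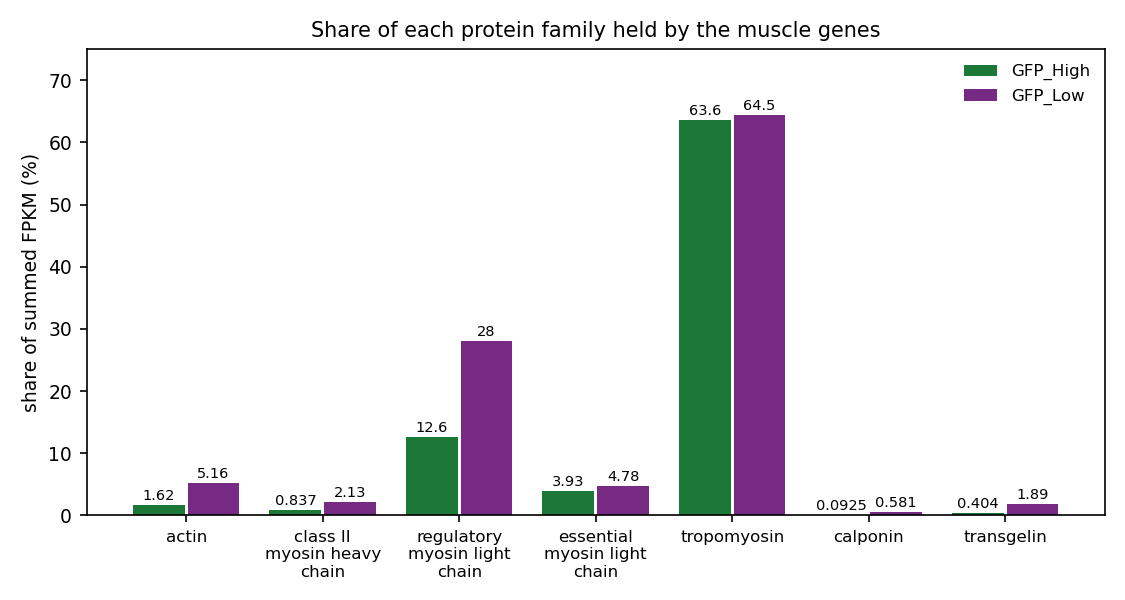
Share of the summed FPKM of each protein family held by the muscle genes among the 42, in percent, in GFP_High (green bars) and GFP_Low (purple bars). The share of muscle forms among regulatory myosin light chains was 12.6% in GFP_High and 28.0% in GFP_Low, and that among tropomyosins was 63.6% and 64.5%.

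Other genes of the striated muscle programme were mostly low. Of 30 other sarcomere and myofibre genes, 23 were under 1 FPKM in both libraries. The same held for 14 of the 33 striated genes above and for 8655 of the 21590 genes with both values. By the call rule 0 of the 30 were higher in GFP_Low and 2 in GFP_High. These were *Jph1* (6.17 FPKM in GFP_High, 2.16 in GFP_Low), which couples membrane and reticulum, and *Pygm* (9.16 and 4.4), the muscle glycogen phosphorylase. The list summed to 52.4 FPKM in GFP_High and 47.3 FPKM in GFP_Low, led by *Eno3*, and its median log2 difference was 0.00. Of 15 muscle precursor and fusion genes found in the table, 0 reached 5 FPKM, with sums of 10.5 FPKM in GFP_High and 17.7 FPKM in GFP_Low, led by *Chrnb1* and *Itga7* respectively. Of these 15, 7 had the larger value in GFP_Low and 8 in GFP_High. *Pax7*, which marks muscle stem cells, had 0.14 FPKM in GFP_High and 0.12 FPKM in GFP_Low. *Itga7*, an integrin subunit of muscle, had 1.18 FPKM in GFP_High and 4.95 FPKM in GFP_Low (4.19-fold), and *Megf10* had 0.29 FPKM and 3.96 FPKM (13.7-fold). In the other direction, *Chrnd*, a subunit of the muscle acetylcholine receptor, had 0.92 FPKM in GFP_High and 0.02 FPKM in GFP_Low.

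The 250 bases before the RefSeq start were searched for 3 motifs, each of which reads the same on both strands. Of the 42 genes, 34 had an entry, and *Actg2*, *Myod1*, *Tnni2*, *Myf6*, *Tagln*, *Neb*, *Tnnt3* and *Myh11* had none. CAGCTG was present for 15 of the 34 (44.1%), compared with 14.7% of all 27025 genes in the promoter table. These 15 included *Mylpf*, *Acta2*, *Tpm2* and *Des*. By type they were 12 of the 28 striated genes with an entry (42.9%), 1 of the 3 smooth muscle genes (33.3%) and 2 of the 3 genes used by both (66.7%). A CArG box was present for *Acta1*, *Actc1*, *Myl3*, *Myh4* and *Myl9* (14.7%), compared with 1.62% of all genes. Sequence further upstream was not searched, and for *Acta2* only 33 of the searched bases lay outside the annotated gene. An exact match to the MEF2 pattern was present for *Ttn* (2.94%), compared with 0.592%. A match is a description of the letters and not a site of binding, and genes with a match included both called genes (*Myl9*, *Mylpf*, *Acta2*) and genes listed at or near 0 (*Myl2*, *Myh4*, *Ttn*).

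**Figure D4:**
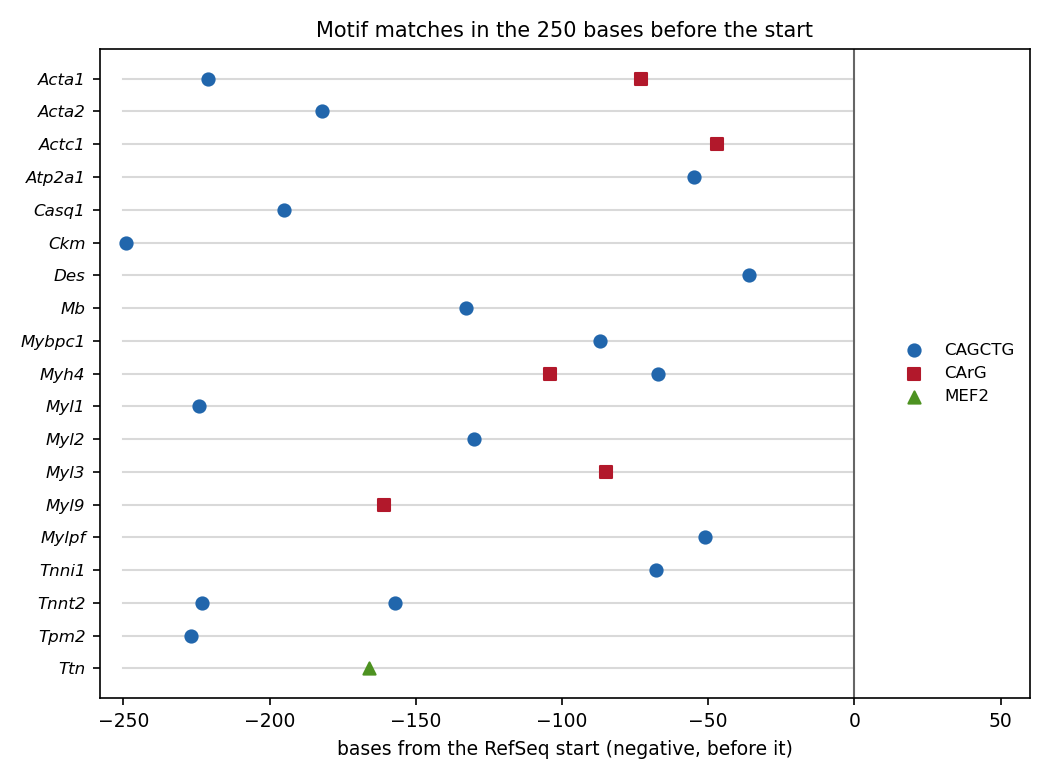
Matches to CAGCTG (circles), the CArG box (squares) and the MEF2 motif (triangle) in the 250 bases before the RefSeq start, for the 19 muscle genes with a match; the axis gives bases from the start, and a site shared by several entries of a gene is drawn once. The match nearest the start is that of *Des*, at 36 bases.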

How the data were processed

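The FPKM values were made and deposited by the authors, who trimmed reads with Trimmomatic 0.36, aligned them to mm10 with GSNAP and quantified them with Cufflinks 2.2.1. Their fold column was not used. The FPKM columns are named means, while the labels list 1 sample per population, so each was taken as 1 library; if a column averaged several, the read numbers and intervals would not hold. Python 3.11.15 (pandas 2.3.3, numpy 2.4.6, scipy 1.17.1, matplotlib 3.10.9) was used here. Of 21628 entries, 21 that GENCODE M21 types as non-coding were left out, and 21590 had both values. A call needed 5 FPKM in the higher population and a ratio of 1.5, and the same ratio was used to describe sums. No test was run across genes. Depth was estimated by seeking the depth at which low FPKM of genes with a single transcript fall on whole reads. At the depths chosen, 57.7% of the values in GFP_High and 52.1% in GFP_Low lay within 0.15 of a whole read. Values spread evenly would give a share of 2 times 0.15 at a depth fixed beforehand. Each depth was picked for its highest share, so evenly spread values could also exceed that share. The fit is loose and read numbers are approximate, and intervals and floors cover counting error only. Shared sequence was measured as 50 nt windows found in exons of another gene. Scripts were tested on simulated data.

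All 42 genes are named. Of the comparison lists, the most abundant gene and up to 6 called genes by fold could be named, and some of these are not reported here. Family genes, overlapping neighbours, gene pairs, the promoters shown and uncalled list genes (such as *Pax7*, *Megf10*, *Chrnd*, *Pdgfrb*, *Rgs5* and *Myocd*) were chosen after their values were seen. The members and lists were chosen with earlier results of these data known.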

Additional observations from a re-analysis of the deposited data

How the results depend on the processing

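The number of the 42 genes called higher in GFP_Low (6 as reported) was 11 with a minimum of 1 FPKM (26.2% of the 42, against 7.24% of all genes) and 12 with no minimum (28.6% against 15%). It was 4 to 7 under the other alternatives. The number called higher in GFP_High (1 as reported) was 3 with a minimum of 1 FPKM (7.14% of the 42, against 7.13% of all genes), 9 with no minimum (21.4% against 14.5%), and 0 with a minimum of 10 FPKM or a fold of 2. *Acta2*, *Myl9* and *Tagln* were called higher in GFP_Low under every alternative tried. Dividing each library by its FPKM sum raised every log2 difference by 0.10, and the median ratio of GFP_High to GFP_Low over genes with 5 FPKM in both was 0.973. *Casq2* alone changed direction, to -0.01 after median ratio scaling. The median log2 difference of the 42 genes ranged from 0.09 to 0.23, the log2 difference of the smooth muscle sum from 1.71 to 2.08, and that of the striated sum from -0.14 to 0.18. Short genes under 1 FPKM, such as *Myod1*, rest on few reads, while long ones such as *Neb* hold more reads at a like FPKM. With 1 library per population the spread between animals is unknown.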

Other observations

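The actin-responsive transcription factor SRF and its MRTF coactivators switch on many contractile genes. *Srf* had 65.1 FPKM in GFP_High and 68.7 FPKM in GFP_Low. The coactivator genes *Mkl1* (44.2 FPKM in GFP_High, 50.2 in GFP_Low) and *Mkl2* (23.5 and 20.8) were also well detected and not called. Of 12 SRF and MRTF genes found in the table, *Ctgf* was higher in GFP_Low (16.5 and 25.6 FPKM) and *Fhl1* was higher in GFP_High (32.1 and 18.8 FPKM). The list summed to 1797 FPKM in GFP_High and 1943 FPKM in GFP_Low, led by *Flna*, with a median log2 difference of 0.19.

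Of 22 non-muscle actomyosin genes, 21 reached 5 FPKM in each library. *Cald1* was higher in GFP_Low and *Actg1* in GFP_High, and the list summed to 8694 FPKM in GFP_High and 8415 FPKM in GFP_Low, with a median log2 difference of 0.08. *Cnn3*, a calponin of non-muscle cells, had 93.0 FPKM in GFP_High and 139 FPKM in GFP_Low and was just under the fold threshold.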
